A study of Drosophila melanogaster with 4 samples.

Results

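On chromosome arm 2L of Drosophila melanogaster, 1736 clusters enriched for histone H4 acetylated at lysine 8 (H4K8ac) were examined, out of 9912 in the series-wide list. They are the clusters of 2L whose last base lies at or before base 21011544 in FlyBase release 5, which leaves out the 2 Mb nearest the centromere and keeps 21.0 Mb. The same limit kept 999 of 5692 clusters in the list of ChIP replicate 1 and 961 of 5482 in that of ChIP replicate 2. The larvae, of the wild-type strain Oregon-R-modENCODE, were at the third instar, and the groups were H4K8ac ChIP (2 libraries) and input DNA (2 libraries), with no mutation or treatment. Chromatin came from homogenised larval tissue fixed with formaldehyde, and the labels name no single tissue, so a list can hold signal from many cell types. The rabbit polyclonal antibody was raised against a human H4 peptide. No input list was analysed here, and the lists carry no read counts, so the depth behind a cluster is unknown. The series-wide list is set beside the replicates and is not counted as a replicate.

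Lysine 8 lies in the flexible tail of histone H4 that reaches out of the nucleosome. Histone acetyltransferases place the acetyl group and deacetylases remove it, and the charge of the lysine is neutralised while the group is present. Acetylated H4 tails are bound by proteins with bromodomains and are found at active promoters and over transcribed genes. Arm 2L is the left arm of an autosome, with the tip at its low coordinates and pericentric heterochromatin at its high end. No genome of release 5 was used here, so genes and sequences at these positions are not given.

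H4K8ac clusters covered a minor part of 2L, and the clusters of both replicates were alike in length. Clusters covered 3.07 Mb (14.6%) of the examined part in replicate 1 and 2.81 Mb (13.4%) in replicate 2, a mean of 14.0% ± 0.87 (SD, n = 2). In the series-wide list they covered 5.99 Mb (28.5%). The typical cluster was short, with a median of 1977 bp in replicate 1, 2025 bp in replicate 2 and 1779 bp series-wide. A cluster shorter than 2 kb was the commonest kind in the series-wide list, where 996 clusters (57.4%) held 22.8% of the cluster bases. At the other end, 95 series-wide clusters of 10 kb or more (5.47%) held 33.0% of the bases. That length was reached by 37 clusters (19.3% of the bases) in replicate 1 and by 28 clusters (15.1%) in replicate 2. The longest cluster was 38.1 kb in replicate 1, 25.5 kb in replicate 2 and 89.0 kb series-wide. The replicate lists began at 1301 bp and the series-wide list at 1001 bp, and 493 series-wide clusters (28.4%) were shorter than any replicate cluster.

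Neighbouring clusters were mostly close to each other, with a long tail of wide spacings. The median number of bases between neighbours was 2848.5 in replicate 1, 2947 in replicate 2 and 1967 series-wide. The mean spacing was 17904 bp in replicate 1, 18875 bp in replicate 2 and 8638 bp series-wide, several times the median in each list. Fewer than 1000 bases separated 27.7% of neighbours in replicate 1, 26.5% in replicate 2 and 35.2% series-wide. The upper 10% of spacings began at 39.5 kb in replicate 1, 45.1 kb in replicate 2 and 19.1 kb series-wide. Longer clusters had nearer neighbours. In the series-wide list the median distance to the nearest cluster was 1729 bp for the shortest 25% of clusters and 353 bp for the longest 25%. The same distances were 1767.5 bp and 630.5 bp in replicate 1, and 2489 bp and 680 bp in replicate 2. Clusters more than 20 kb from any neighbour numbered 55 in replicate 1, 50 in replicate 2 and 36 series-wide. Their median lengths were 1465 bp (replicate 1), 1547 bp (replicate 2) and 1356 bp (series-wide), below the median of all clusters in each list. The longest of them had 11264 bp in replicate 1, 4065 bp in replicate 2 and 11837 bp series-wide.

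**Figure D1:**
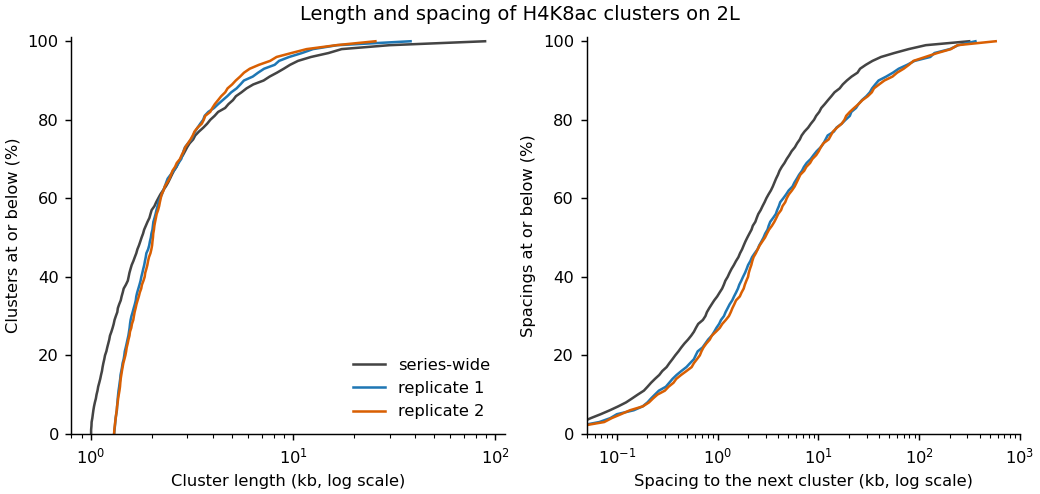
Share of clusters (left) at or below each length and share of spacings (right) at or below each distance, on logarithmic axes in kb, for the 3 lists on 2L, drawn from percentiles. The replicates nearly coincide, with median lengths of 1977 and 2025 bp, and the series-wide list has shorter spacings, with a median of 1967 bp.

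Coverage did not run evenly along the arm. In segments of 3 Mb from the tip, the series-wide list covered 33.0%, 30.4%, 36.2%, 21.5%, 31.9%, 16.4% and 29.9%. In both replicates the lowest segment was again 15 to 18 Mb, at 6.03% in replicate 1 and 5.71% in replicate 2. The replicates peaked at 12 to 15 Mb, with 21.0% in replicate 1 and 18.5% in replicate 2, and the peak was at 6 to 9 Mb in the series-wide list. In the replicates the 12 to 15 Mb segment also held much empty sequence. Cluster-free stretches of 100 kb or more took up 49.7% of it in replicate 1 and 51.1% in replicate 2. In the series-wide list they took up 20.0% of it, near the 20.4% of the whole part examined.

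At 250 kb, the covered share ranged over the 84 full windows from 0% to 62.3% in replicate 1, from 0% to 58.2% in replicate 2 and from 0% to 78.6% in the series-wide list. The median window was at 13.3% in replicate 1, 11.0% in replicate 2 and 29.1% series-wide. Replicates 1 and 2 each left 3 windows without a cluster, and the series-wide list left 2. The window from 14.5 to 14.75 Mb was the densest in all 3 lists, at 62.3% in replicate 1, 58.2% in replicate 2 and 78.6% series-wide. Next to it, the window from 14.25 to 14.5 Mb was covered over 49.6% in replicate 1, 47.4% in replicate 2 and 67.4% series-wide. Near the tip, 0.5 to 0.75 Mb reached 46.8% in replicate 1, 39.7% in replicate 2 and 68.4% series-wide. These windows were dense in every list.

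Other series-wide maxima were less marked in the replicates. The window from 15.25 to 15.5 Mb was covered over 63.3% in the series-wide list but over 20.1% in replicate 1 and 24.1% in replicate 2. From 19.25 to 19.5 Mb it was 57.4% series-wide, 26.6% in replicate 1 and 32.5% in replicate 2. The 5 windows at the low end were low in every list. The windows from 15.0 to 15.25 Mb and from 16.0 to 16.25 Mb held no cluster at all. The windows starting at 11.5, 17.0 and 10.0 Mb were covered over 2.43%, 2.97% and 3.36% in the series-wide list and over at most 0.89% in either replicate. An empty window could lie directly beside a dense one of the series-wide list, as at 15.0 and 15.25 Mb. Beside the empty window at 16.0 Mb, the series-wide list covered 4.71% on the tip side and 38.5% on the other.

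**Figure D2:**
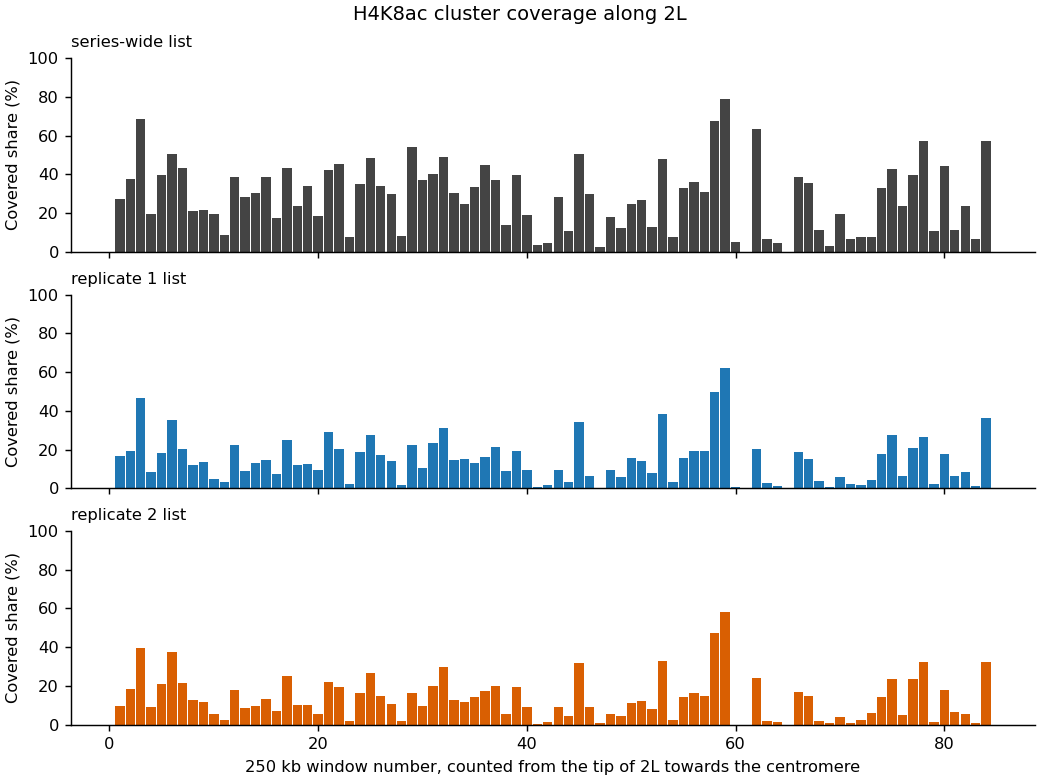
Percent of bases in clusters for each of the 84 windows of 250 kb on 2L, numbered from the tip towards the centromere, with the series-wide list, replicate 1 and replicate 2 from top to bottom. Windows 58 and 59 (14.25 to 14.75 Mb) stand highest in both replicates, at 47.4% to 62.3%, and windows 61 and 65 are empty in all lists.

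At 100 kb the contrast was stronger. Of 210 windows, 47 held no cluster base in replicate 1, 51 in replicate 2 and 16 series-wide. The median 100 kb window was covered over 10.3% in replicate 1, 9.14% in replicate 2 and 26.4% series-wide. The fullest window, 14.5 to 14.6 Mb, reached 89.9% in replicate 1, 86.4% in replicate 2 and 97.4% series-wide. In each list the 52 densest windows held most of the cluster bases of the windows, namely 64.0% in replicate 1, 67.7% in replicate 2 and 53.3% series-wide. The coefficient of variation (SD divided by mean) over the windows was 1.15 in replicate 1, 1.22 in replicate 2 and 0.82 series-wide. Neighbouring windows were only loosely alike. Described over windows of the same libraries, the correlation of a window with the next was 0.28 in replicate 1, 0.27 in replicate 2 and 0.28 series-wide. At a distance of 2 windows it was 0.08 in replicate 1, 0.07 in replicate 2 and 0.02 series-wide.

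Dense blocks were defined as runs of at least 2 neighbouring 100 kb windows in the upper quartile of the series-wide list, which began at 40.0%. The quartile held 53 windows, and 27 of them fell into 11 such runs while 26 stood alone. Of the 53 windows, 44 were also in the upper quartile of replicate 1 and 43 in that of replicate 2.

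The longest block ran over 5 windows, from 14.2 to 14.7 Mb. It was covered over 62.8% in replicate 1, 57.8% in replicate 2 and 79.5% series-wide, and 10 of its 37 series-wide clusters were 10 kb or longer. The windows on either side were covered over 15.9% and 15.4% in the series-wide list. When clusters closer than 5 kb were joined, the longest joined block of each list lay here. It ran from 14356207 to 14642317 (286.1 kb) in replicate 1, from 14366071 to 14640853 (274.8 kb) in replicate 2 and from 14356112 to 14642544 (286.4 kb) in the series-wide list. The block was made of 31 clusters in replicate 1, 32 in replicate 2 and 11 series-wide. At this distance its outlines thus nearly coincided in the 3 lists while the number of pieces did not. Joined under 1000 bp, the longest block began at 14491046 in replicate 2 but at 1424716 in replicate 1 and 1369982 series-wide. Joined under 2000 bp, it began at 1389171 in replicate 2 and lay in this block in the other lists. Joined under 10 kb, it began here in each list, at 286.1 kb in replicate 1, 282.0 kb in replicate 2 and 390.7 kb series-wide.

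The other long blocks differed in how well the replicates filled them. From 0.4 to 0.7 Mb the covered share was 44.5% in replicate 1, 40.4% in replicate 2 and 62.7% series-wide. From 7.0 to 7.3 Mb it was 19.6% in replicate 1, 15.1% in replicate 2 and 53.4% series-wide, with 64 series-wide clusters of which a single one reached 10 kb. The block from 19.2 to 19.4 Mb was the fullest of the 11 in the series-wide list, at 81.8%, with 37.7% in replicate 1 and 50.8% in replicate 2. The block from 15.3 to 15.5 Mb had 23.6% in replicate 1, 28.4% in replicate 2 and 72.4% series-wide. Dense in the series-wide list therefore stood for long clusters found in both replicates at 14.2 Mb, and for many short ones at 7.0 Mb.

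The 10 longest series-wide clusters of 2L were 38.2 to 89.0 kb long and together made up 515.2 kb, or 8.61% of the cluster bases. Clusters of replicate 1 covered 79.8% to 97.6% of each and those of replicate 2 covered 66.0% to 91.0%, as 3 to 9 separate clusters in replicate 1 and 4 to 12 in replicate 2. The longest, from 1385456 to 1474442 with a score of 0.763, was cut into 9 clusters in replicate 1 and 12 in replicate 2.

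Of the other long clusters, 3 lay in the block at 14.2 to 14.7 Mb. They ran from 14525768 to 14588524 (62.8 kb), from 14410904 to 14465720 (54.8 kb) and from 14651190 to 14689376 (38.2 kb). A further pair, from 13060576 to 13111560 (51.0 kb) and from 13113824 to 13154096 (40.3 kb), shared the block from 13.0 to 13.2 Mb. The remaining clusters were spread over the arm, at 5221486 to 5270356 (48.9 kb), 7893304 to 7937394 (44.1 kb), 634758 to 678352 (43.6 kb) and 11013606 to 11056234 (42.6 kb). The last of these began at the border of a cluster-free stretch of 206.5 kb, with no cluster in any list between 10807133 and 11013605. The shortest of the 10, at 38.2 kb, also had the lowest score among them, 0.578, the 112th highest on this part of 2L.

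Scores are the authors' own, on a scale that is not given, and only rank clusters within a list. The highest series-wide score, 1.01, belonged to a cluster of 16.9 kb from 834104 to 851034. This cluster was a single piece in both replicates, from 834424 to 850945 in replicate 1 (score 1.08, the highest there) and from 834517 to 850931 in replicate 2 (score 0.978, the second highest there). The second highest series-wide score, 0.866, was that of a short cluster of 4029 bp from 16508862 to 16512890, in the sparsest segment of the arm. It was covered over 74.5% in replicate 1 and 82.4% in replicate 2.

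The other clusters among the 5 highest scores were long. They ran from 14490892 to 14525436 (34.5 kb), from 6179068 to 6209320 (30.3 kb) and from 14525768 to 14588524 (62.8 kb). At the start of the first of these, replicate 1 had a cluster from 14490895 to 14494388 (3494 bp, score 1.01) and replicate 2 had one from 14491046 to 14494457 (3412 bp, score 1.14). It was the second highest score of replicate 1 and the highest of replicate 2. A short, high-scoring piece thus lay at the same place in both replicates, inside the longest block.

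Long stretches without a cluster took up a large part of 2L in the replicates. Stretches of 100 kb or more numbered 43 in replicate 1, 45 in replicate 2 and 27 series-wide. They made up 41.2% of the arm without its proximal end in replicate 1, 43.6% in replicate 2 and 20.4% series-wide, and the replicates averaged 42.4% ± 1.71 (SD, n = 2). Stretches free of clusters in both replicates numbered 41 and came to 7.72 Mb, or 36.8%. Inside these 41 stretches the series-wide list still held 191 clusters, with a median length of 1203 bp, which covered 3.71%. In the 27 series-wide stretches the replicates were empty but for cluster ends, covering 0.015% in replicate 1 and 0.00070% in replicate 2.

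The stretches were unevenly spread along the arm. Among the 3 Mb segments they took up the most from 15 to 18 Mb, with 65.6% in replicate 1, 69.8% in replicate 2 and 51.0% series-wide. From 6 to 9 Mb they took up 15.8% in replicate 1, 21.8% in replicate 2 and 5.43% series-wide, which was the lowest segment in both replicates. In the series-wide list the lowest segment was the first 3 Mb, with 4.35%. The longest series-wide stretch ran from 15937513 to 16250549 (313.0 kb). It was followed by 16929349 to 17236925 (307.6 kb), 14983553 to 15254981 (271.4 kb), 17781789 to 17993675 (211.9 kb) and the stretch of 206.5 kb from 10807133 named above. Of these 5, the first, the second, the fourth and the fifth held no base of a replicate cluster, and the third held only the end of a replicate 1 cluster.

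The next 5 series-wide stretches were 159.0 to 204.8 kb long and held no replicate cluster. They ran from 20091333 to 20296163, 11598569 to 11797001, 12172511 to 12349073, 6802847 to 6964423 and 12871091 to 13030099. The longest stretches free in both replicates partly fell at the same places. They were 17775663 to 18122154 (346.5 kb), 15918470 to 16253068 (334.6 kb), 16929125 to 17243809 (314.7 kb), 14983576 to 15262940 (279.4 kb) and 11525837 to 11801859 (276.0 kb). From 0.43% to 1.80% of each was in series-wide clusters, of which each held 1 to 4. In replicate 2 alone, a stretch of 573.9 kb ran from 14689047 to 15262940, directly after the longest dense block. Replicate 1 had 3 clusters there, covering 0.71%.

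Coverage in the first 5 kb beside the stretches was close to the arm's own level in the replicates but above it in the series-wide list. In the replicates, the first 5 kb outside the 54 borders of the 27 series-wide stretches was covered over 14.6% in replicate 1 and 13.0% in replicate 2, against 14.6% and 13.4% for the whole part of 2L examined. Between 5 and 30 kb the covered share was 16.3% to 19.3% in replicate 1, above its level for 2L. In replicate 2 it was 9.59% to 16.7%, on both sides of its level. From 50 to 55 kb it was 13.2% in replicate 1 and 9.82% in replicate 2. The replicates showed no steady increase with distance from the borders. The series-wide list started at 45.6% in the first 5 kb, where its own clusters set the border. Between 5 and 45 kb it stayed at 29.3% to 40.7%, above its 28.5% for the whole part of 2L. From 50 to 55 kb it was at 27.8%. The border clusters themselves were short. Of 53 such clusters, 42 (79.2%) were under 2 kb, against 57.4% of all series-wide clusters of 2L, and 38 (71.7%) met no cluster of either replicate, against 50.7% of all. Of the 53, 2 were 10 kb or longer, against 95 of all 1736.

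**Figure D3:**
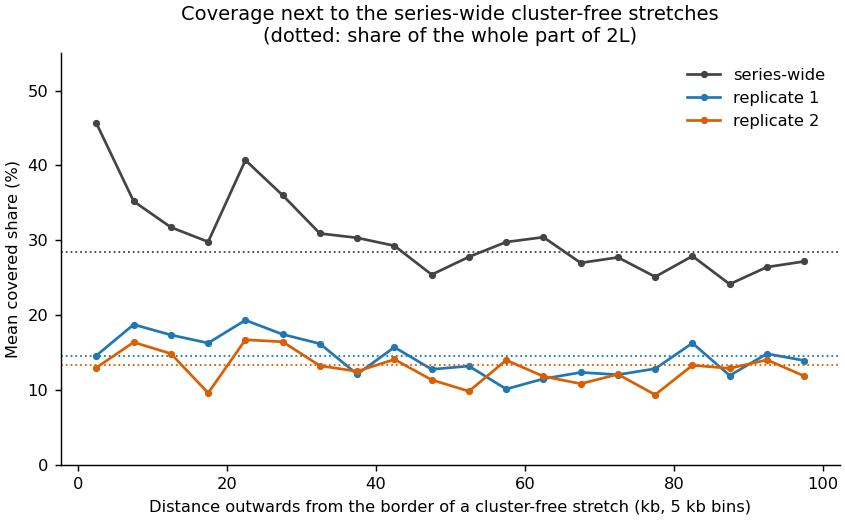
Mean percent of bases in clusters in 5 kb bins outwards from the 54 borders of the 27 series-wide cluster-free stretches of 100 kb or more, for the 3 lists; dotted lines give each list's share of the part of 2L examined. Replicate 1 starts at 14.6% and replicate 2 at 13.0%, at the level of their dotted lines.

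What the stretches have in common in sequence or in how well reads can be placed was not tested. The intervals between neighbouring series-wide stretches had a median length of 367.5 kb. The widest such interval ran for 2034 kb, from 6964424 to 8998760, and the narrowest was a single cluster of 1555 bp.

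Reproducibility on 2L was close to that of the whole lists. Of the replicate 1 clusters, 686 of 999 (68.7%) shared at least 1 base with replicate 2, against 68.6% over all sequences of the series. In replicate 2, 707 of 961 (73.6%) met replicate 1, against 73.4% over all sequences. These shares lie near the background and say nothing particular about 2L. Each of the 37 clusters of replicate 1 and 28 of replicate 2 that reached 10 kb overlapped the other list. A long cluster has more bases with which to share 1, and the share at this length over all sequences is not given here. These counts therefore say nothing particular about 2L. Clusters without a counterpart were short (median 1552 bp for replicate 1, 1532 bp for replicate 2), and the longest had 4277 bp. The shared sequence came to 2.01 Mb, which is 65.4% of what replicate 1 covered and 71.5% of what replicate 2 covered.

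The borders of shared clusters often differed between the replicates. When each cluster was paired with its reciprocal best overlap, 591 pairs resulted, whose starts differed by a median of 572 bp and whose ends by 446 bp. Both borders were within 1000 bp in 297 pairs (50.3%) and within 200 bp in 63 pairs (10.7%). The upper quartile of the difference began at 1257.5 bp for starts and 1312.5 bp for ends. These differences are to be read against a median cluster of about 2 kb. Over the pairs, the scores had a Spearman correlation of 0.49 and the lengths of 0.58, as a description of clusters from the same libraries.

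Windows of 100 kb ranked alike in the replicates, by measures that cannot be set directly beside the overlaps of single clusters. The covered shares of the replicates differed by a median of 1.74 percentage points over the 210 windows and by more than 5 points in 38. Replicate 1 was higher in 112 windows and replicate 2 in 59, and the 39 equal windows were empty in both. The Spearman correlation across windows was 0.96, which describes windows that share libraries and borders.

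The 5 windows with the largest difference did not all lean the same way. The largest gap, 16.9 points, was from 19.2 to 19.3 Mb, with 25.7% in replicate 1 and 42.6% in replicate 2. From 14.2 to 14.3 Mb replicate 1 had 38.8% and replicate 2 had 27.0%. From 5.1 to 5.2 Mb replicate 1 had 18.9% and replicate 2 had 7.36%, and from 4.8 to 4.9 Mb they had 16.3% (replicate 1) and 5.51% (replicate 2). From 1.5 to 1.6 Mb replicate 1 had 3.57% and replicate 2 had 13.7%. The first and last of the 5 were higher in replicate 2 and the other ones in replicate 1.

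**Figure D4:**
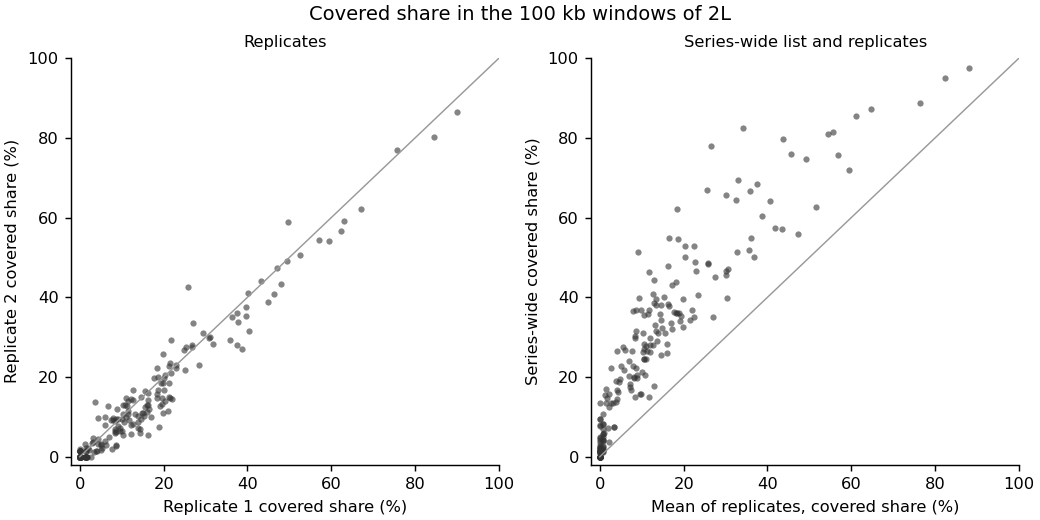
Percent of bases in clusters in the 210 windows of 100 kb on 2L, replicate 2 against replicate 1 (left) and series-wide list against the mean of the replicates (right); each point is a window and the line marks equal values. The replicates lie along the line, with a largest gap of 16.9 points, and the series-wide values lie above it in 194 of the 210 windows.

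The series-wide list of 2L held many short clusters that neither replicate list contained. Of its 1736 clusters, 424 (24.4%) met both replicates, against 25.2% over all sequences of the series. Replicate 1 alone met 240 (13.8%) and replicate 2 alone met 191 (11.0%). The other 881 (50.7%) met neither, against 50.4% over all sequences, again near the background. By bases the order was different, with 61.2% of the series-wide bases in clusters met by both and 21.3% in clusters met by neither.

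These classes differed in length. All 95 series-wide clusters of 10 kb or more met both replicates, and of 168 clusters from 5 to 10 kb, 149 (88.7%) did. From 2 to 5 kb the share in both was 35.6% of 477. It was 1.99% of the 503 clusters between 1301 bp and 2 kb, and none of the 493 shorter ones met both. No replicate cluster was as short as these 493. A longer cluster has more bases with which to meet a list, and the shares by length over all sequences are not given here. Whether length goes with support beyond this was not tested. Clusters met by neither had a median length of 1275 bp and lay a median of 12.6 kb from the nearest cluster met by both.

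Joins and breaks differed as well. Of the 424 clusters met by both, 190 held at least 2 clusters of replicate 1 and 169 held at least 2 of replicate 2, with up to 9 pieces in replicate 1 and 12 in replicate 2. The reverse was rare, with 10 clusters in each replicate list that touched more than 1 series-wide cluster.

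**Figure D5:**
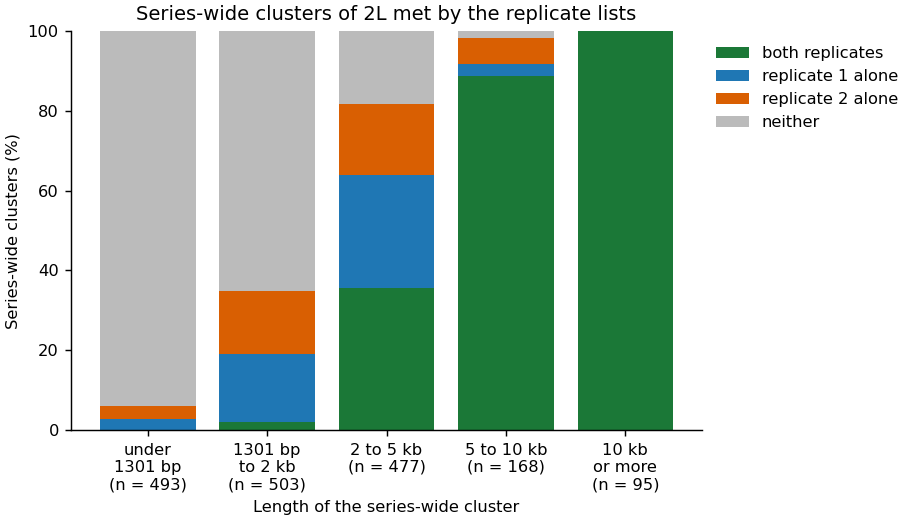
Percent of series-wide clusters of 2L in each length class that share at least 1 base with both replicate lists, with replicate 1 alone, with replicate 2 alone or with neither; the number of clusters stands under each bar. The share in both runs from 0 of 493 clusters under 1301 bp to all 95 clusters of 10 kb or more.

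Support also differed with the series-wide coverage of the 100 kb window a cluster lay in. That coverage includes the cluster's own bases, so it is not separate from length. Among series-wide clusters in the 25% of 100 kb windows with the lowest coverage, at most 7.48%, 1 of 83 met both replicates and 67 (80.7%) met neither. In the 25% with the highest coverage, 227 of 643 (35.3%) met both and 258 (40.1%) met neither. The median cluster was 1203 bp long in the emptiest windows and 2405 bp in the fullest, so density and length changed together here. Which of the 2 goes with support was not tested.

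The limit at base 21011544 fell within a dense place. The last series-wide cluster inside it ran from 20980536 to 21008726 (28.2 kb, score 0.671). The next, from 21009254 to 21020264 (11.0 kb, score 0.636), crossed the limit and was left out, and the first beyond it ran from 21023788 to 21037586 (13.8 kb, score 0.638). The dense block from 20.8 to 21.0 Mb therefore ended where the examined part did.

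Arm 2L was set beside the arms 3L, 3R and X, each also without its 2 Mb nearest the centromere. Arm 2R was not compared. Among these 4 arms, 2L was intermediate in coverage and had the largest share of sequence in empty stretches of 200 kb or more in each list. Its covered share was 14.0% ± 0.87, against 18.7% ± 0.82 on 3L, 13.7% ± 0.81 on 3R and 10.5% ± 0.68 on the X (SD, n = 2 each). The coefficient of variation over 100 kb windows was 1.19 ± 0.049 on 2L, against 1.06 ± 0.038 on 3L, 1.16 ± 0.018 on 3R and 1.12 ± 0.038 on the X. Within each replicate 2L had the highest value of these 4 arms, but its replicate 1 value of 1.15 was below the replicate 2 value of 1.17 on 3R, so the gap to 3R was within the spread between replicates. In the series-wide list the values were 0.82 on 2L, 0.72 on 3L, 0.79 on 3R and 0.80 on the X.

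Cluster-free stretches of 100 kb or more took up 42.4% ± 1.71 of 2L, against 29.3% ± 2.66 of 3L, 38.2% ± 0.95 of 3R and 40.3% ± 1.31 of the X. In replicate 1 both 2L and the X were at 41.2%. Stretches of 200 kb or more took up 26.2% and 27.7% of 2L in replicates 1 and 2, against 14.7% and 16.4% of 3L, 19.4% and 18.8% of 3R and 22.8% and 16.7% of the X. The lower value on 2L exceeded the higher value on each of the other arms. In the series-wide list these stretches took up 7.21% of 2L, against 1.32% of 3L, 3.35% of 3R and 2.12% of the X. Arms were compared without a test, since each value has 2 replicates, and nothing here is shown to be particular to 2L.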

How the data were processed

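Chromatin of Oregon-R-modENCODE larvae (the third instar) was immunoprecipitated with an H4K8ac antibody and sequenced in 2 replicates, with 2 input libraries, per the labels. The submitters' processing notes name Bowtie 0.12.7, and positions follow FlyBase release 5, per the file headers. The authors deposited for each cluster a first and last base and a score, which serves here for ranking or filtering inside 1 list. Not given in the sources used here are the caller, its thresholds, the use of the inputs and how the series-wide list was made. Depth is unknown, and separate collections of larvae are not stated, so the spread between replicates may be technical.

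The lists were read in Python 3.11.15 with numpy 2.4.6 and pandas 2.3.3. A cluster met another list when at least 1 base was shared. Windows were full windows counted from base 1, and stretches ran between clusters. Measures were checked on simulated lists with known answers. The regions named are the longest and highest-scoring clusters, the longest stretches, the extreme windows and the longest blocks. Members, regions and measures were chosen with earlier results of these data known. With 1 ChIP group no test between groups exists, so no p-value is given. The gene table used for this species follows release 6 and was not used.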

Additional observations from a re-analysis of the deposited data

How the results depend on the processing

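Of 47 alternative values for 9 results, 28 moved by more than a set margin. The margin was the spread between replicates, except for 2 results. For the correlation between replicates it was 0.01. For the share met by both it was 2.02 points, taken from the 95% Wilson interval over clusters. Clusters of 1 list are not replicates, so that margin measures no spread between libraries. When clusters scoring below their list's median were dropped, the covered share was 9.27%, the median length 2823.5 bp and the median spacing 6885 bp. The share in stretches of 100 kb or more was 61.8%, the coefficient of variation 1.55 and the densest-windows share 77.5%. The replicate correlation was 0.86, and 62.0% of clusters were met by the other replicate, with both replicate lists filtered. In the full series-wide list the first 6 of these values were 28.5%, 1779 bp, 1967 bp, 20.4%, 0.82 and 53.3%. When only the series-wide list was filtered by score and the replicate lists were kept whole, 47.5% of series-wide clusters were met by both. Merging clusters closer than 1000 bp gave a median length of 2143 bp and a spacing of 5842 bp. Stretches of 50 kb or more took up 57.6% and those of 200 kb or more 26.9%. In 250 kb windows the coefficient of variation was 0.84, the densest-windows share 53.3% and the replicate correlation 0.98. With 50% overlap of both clusters 42.8% were met by the other replicate, and with 50% cover in each replicate 14.9% of series-wide clusters were met by both. Of series-wide clusters at least 1301 bp long, 34.1% were met by both. An alternative chosen after seeing the data, the series-wide clusters that meet a replicate cluster, gave a covered share of 22.4%, 37.5% in stretches and a coefficient of variation of 0.99, nearer to the replicates than the full series-wide list. Leaving out clusters can only lower the covered share and lengthen stretches, and larger windows average more sequence. A higher length limit can only lower the share in stretches, and a lower limit can only raise it. Asking for 50% overlap or cover can only lower the shares met. Merging removes the shortest spacings, so the median spacing cannot fall. For the remaining changes, the cause was not tested. Without either replicate, a mean becomes the value of the remaining library, which by construction lies within the spread between replicates. Merging clusters closer than 1000 bp cannot change stretches of 100 kb or more. These values could not move, so counting them among the unmoved shows nothing about stability. No paired analysis was possible because only the ChIP group was analysed, with no second group to pair it with.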

Other observations

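Longer clusters on 2L tended to have higher scores in all 3 lists. Over clusters, the Spearman correlation was 0.64 in replicate 1, 0.57 in replicate 2 and 0.40 series-wide, as a description. With the clusters of each list split by length into 4 sets of equal size, the longest set had a median score of 0.688 in replicate 1, 0.712 in replicate 2 and 0.502 series-wide. Between the shortest set and the next, the scores did not increase in every list. The shortest set had a median of 0.528 in replicate 1, 0.576 in replicate 2 and 0.415 series-wide. The next had 0.534 in replicate 1, 0.574 in replicate 2 and 0.363 series-wide. The set after that had 0.620 in replicate 1, 0.654 in replicate 2 and 0.414 series-wide. In the series-wide list, only the longest set thus had a higher median score than the shortest.

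Coverage on 2L kept a likeness between nearby 10 kb windows and lost it by about 100 kb. In windows of 10 kb, the correlation with the next window was 0.66 in replicate 1, 0.66 in replicate 2 and 0.70 series-wide. At a distance of 5 windows it was 0.22 in replicate 1, 0.25 in replicate 2 and 0.26 series-wide, and at 10 windows 0.05 in replicate 1, 0.07 in replicate 2 and 0.06 series-wide. The 3 lists lost it at the same distances although the series-wide list covered 28.5% of the part of 2L examined, against 14.6% in replicate 1 and 13.4% in replicate 2.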
